A study of Mus musculus with 23 samples.

Results

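This comparison sets wild-type mouse 2-cell embryos (2 libraries, from a wildtype female and a wildtype male) against germinal vesicle (GV) oocytes of 3-week wildtype females (3 libraries). It covers the genes that reached 1 FPKM (read fragments scaled to transcript length and to the library's total) in at least 2 of these 5 libraries, which were 12230 of the 24411 genes in the table. The second highest of the 5 values was 1.00309 FPKM in the last gene inside that rule and 0.999968 FPKM in the first gene outside it. The study measured RNA in 23 libraries of 8 groups around the gene Cxxc1, which encodes the CpG-binding protein CFP1 of an H3K4 methyltransferase complex. Beside the pair compared, values of 3 wild-type zygote libraries (wildtype female and wildtype male), 3 libraries of GV oocytes from 3-month wildtype females, and 3 GV (3-week) and 3 2-cell libraries of the Cxxc1fl/fl;Zp3-Cre deletion are used. Zp3-Cre acts in growing oocytes, so the deletion is maternal, and its 2-cell embryos had a wildtype father. The remaining groups were 3 GV libraries from 3-month Cxxc1fl/fl;Gdf9-Cre females and 3 zygote libraries from Cxxc1fl/fl;Zp3-Cre females and wildtype males. They entered the fit over all 23 libraries, and so the shared estimate of the spread and the choice of genes tested. Strain, the age of the females that gave the embryos, and how many oocytes or embryos made up a library are not stated in the sources used here. Whether replicate libraries stem from different animals is not in the labels, so the p-values speak only of the spread among the libraries at hand, which may be technical.

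As background, the GV oocyte is the fully grown oocyte halted in meiotic prophase, which carries the mRNA that the egg and early embryo use before their own genome is transcribed. Much of that maternal mRNA is removed during maturation and after fertilization. In the mouse, embryonic transcription starts in the zygote and becomes extensive in the 2-cell embryo. The net change from GV oocyte to 2-cell embryo compares the 2 ends of this period and does not separate mRNA removed from mRNA made.

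Of the 12230 genes, 4071 (33.3%) were called higher and 5573 (45.6%) lower in 2-cell embryos, against 30.7% higher and 42% lower among all 13731 genes tested. A call is a Benjamini-Hochberg adjusted p under 0.05 from limma on log2(FPKM + 1), fitted over all 23 libraries. At least a 4-fold change was called for 1130 risen and 1470 fallen genes, and at least a 16-fold change for 189 and 105. The groups did not overlap for 10696 of the 12230 genes (87.5%), compared with 83.5% of all genes tested. The libraries of a stage were alike (Pearson's r across genes 0.991 to 0.993 within GV, 0.978 between the 2-cell libraries) and those of different stages less so (0.693 to 0.703). Genes called higher made up 13.7% to 13.9% of the summed gene FPKM of the GV libraries, 32.5% to 32.8% in the zygote libraries, and 49.7% and 50.4% in the 2-cell libraries. Genes called lower went from 72.1% to 72.4% in GV to 29.5% and 30.5% in 2-cell embryos. Both sets were chosen by their change between these GV and 2-cell libraries, which largely sets the direction of these shares.

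**Figure D1:**
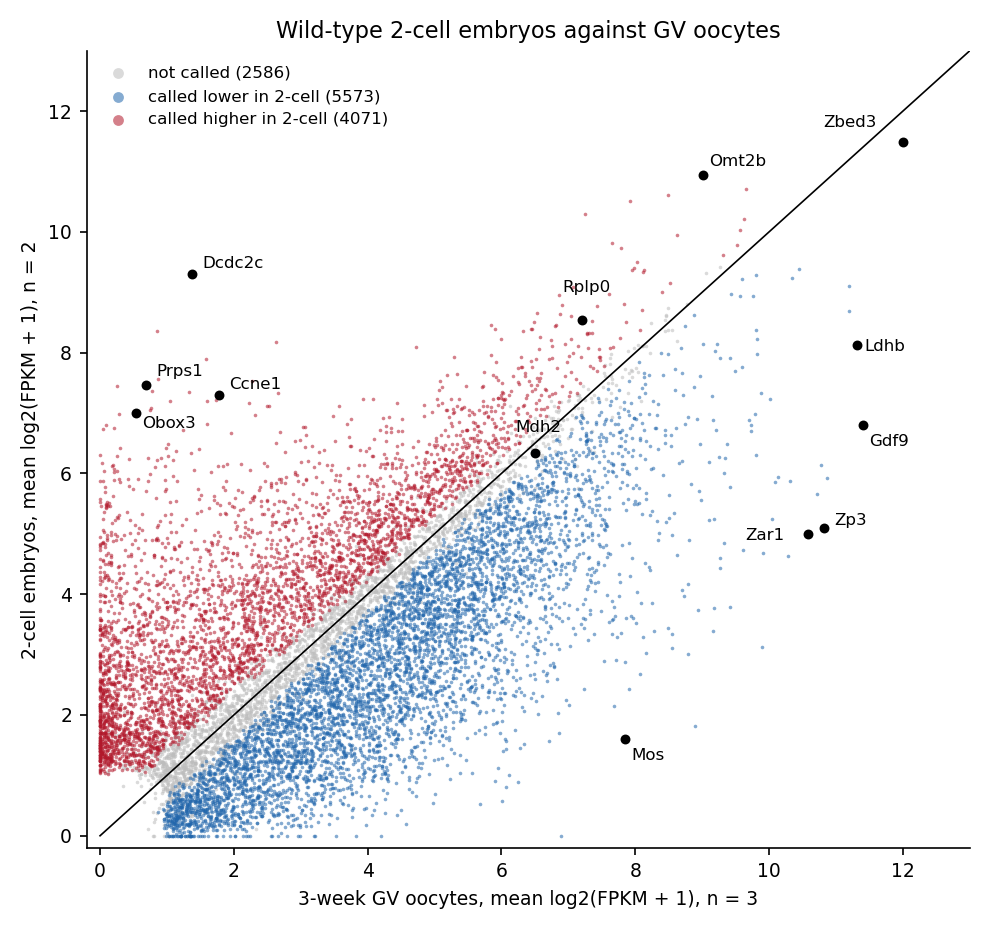
Mean log2(FPKM + 1) of each of the 12230 genes in 3-week GV oocytes (horizontal, 3 libraries) and 2-cell embryos (vertical, 2 libraries), with the line of equal value. Red points (4071) were called higher, blue points (5573) lower and grey points (2586) neither; black points are genes described in the text, among them Dcdc2c far above and Mos far below the line. Scaled to the ERCC entries, 588 genes were higher and 10870 lower.

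FPKM is a share of a library, so "higher" and "lower" here are shares, and the control RNAs in the table moved strongly. The table holds 92 entries of ERCC control RNA, which were taken out of the tests. Their summed FPKM was 341 to 571 in the 3 GV libraries, 1680 to 2042 in the zygote libraries, and 5226 and 7477 in the 2-cell libraries. Over the 25 ERCC entries above 0 in all 5 libraries, the median was 15.4-fold higher in 2-cell embryos (log2 3.94, range 3.45 to 4.53). How much control RNA was added, and to how many cells, is not given in the sources used here, so their part in the changes was not tested. Scaled to the ERCC entries, the median change of all genes tested moved from -0.20 to -2.96, and 588 genes were called higher and 10870 lower. All 588 were among the 4071. Median-of-ratios scaling moved the median by 0.30 the other way and gave 5198 higher and 4376 lower, so the split changed from 42.2% to 54.3% higher. Quantile normalization moved it by 0.11. All control entries together, including 3 named RGC, made up 0.402% to 0.707% of summed FPKM in GV libraries. In the 2-cell libraries they made up 10.9% and 7.79%. Scaling to the sum of gene FPKM without them gave 5155 higher and 4446 lower. Changes below are on the deposited scale. Where scaling to the ERCC entries gives the GV to 2-cell change of a gene or list another direction, that value stands beside it.

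**Figure D2:**
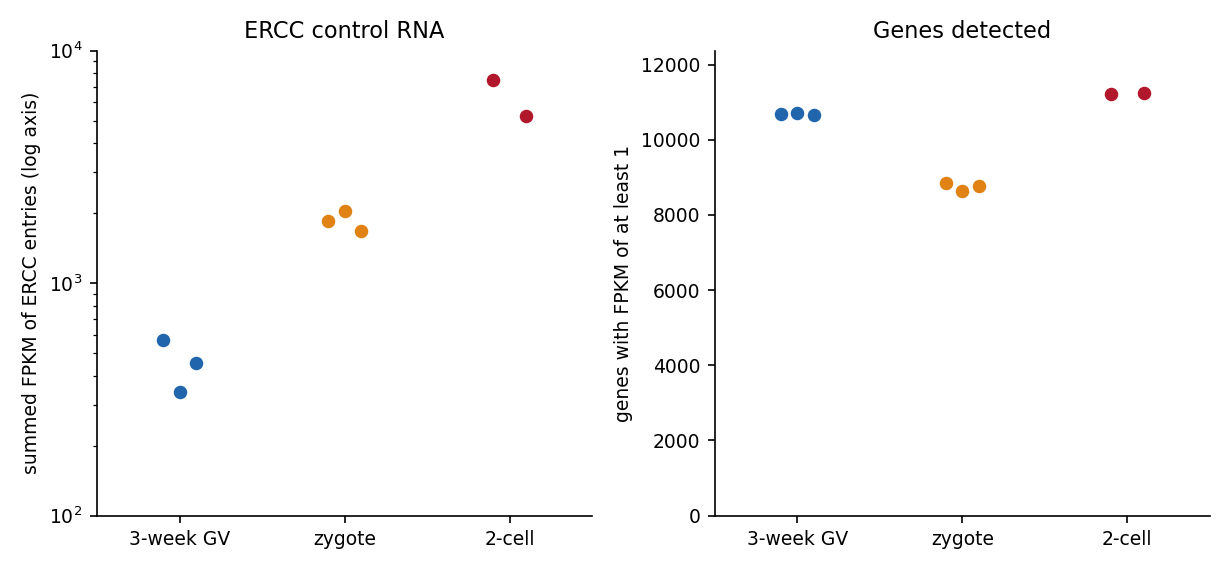
Left, summed FPKM of the ERCC control entries in each wild-type library (log axis), from 341 to 571 in 3-week GV oocytes to 5226 and 7477 in 2-cell embryos. Right, number of genes with at least 1 FPKM per library, which was 10668 to 10701 in GV, 8631 to 8842 in zygotes and 11214 and 11244 in 2-cell embryos.

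The stage labels were checked against markers. All 11 oocyte markers, among them the zona genes, Gdf9 and Nobox, fell, and their summed FPKM was 10230 to 10360 in GV and 968 and 1121 in 2-cell libraries. Of 18 markers of the 2-cell embryo 16 rose and 1 fell, with sums of 142 to 154 in GV and 433 and 553 in 2-cell libraries. Within a library, fewer cells of a type and less RNA per cell cannot be told apart. Markers of granulosa and cumulus cells summed to 178 to 195 FPKM in GV and 62.9 and 74.0 in 2-cell libraries (2 of 15 rose, 5 fell), with Ptx3 and Tnfaip6 at 0 in all GV libraries. Serpine2 had 93.7, 97.4 and 92.9 FPKM in GV and 6.13 and 11.2 in 2-cell libraries, and Inha, an inhibin subunit of granulosa cells, had 22.6, 15 and 17.8 in GV and 0.188 and 0.434 in 2-cell. The 2 that rose were Amhr2, a receptor for anti-Müllerian hormone, from 0.924, 0.302 and 0.417 to 20.2 and 25.8 FPKM (log2 3.96, and 1.27 scaled to the ERCC entries), and the nuclear receptor Nr5a2, from 13.1, 15.4 and 12.3 to 21.8 and 19.8 (log2 0.58, but -2.97 scaled to the ERCC entries). Oviduct epithelium markers summed to 6.08 to 7.94 FPKM in GV and 39.2 and 42.9 in 2-cell libraries (4 of 7 rose, none fell; scaled to the ERCC entries 1 rose and 4 fell, median -1.56). That sum was mostly Epcam, an adhesion gene of many epithelia, with 0.347, 0.425 and 0.704 FPKM in GV and 29.7 and 23.3 in 2-cell libraries. Sperm and spermatid markers summed to 12.6 to 15.2 and 18.04 to 18.93 FPKM (2 of 8 rose, 1 fell; median 0.16, but -1.18 scaled to the ERCC entries), blood and immune markers to 4.16 to 5.24 and 12.6 to 24.0 (1 of 8 rose, 1 fell), and stromal markers to 0.995 to 1.17 and 2.48 to 3.12 (1 of 3 rose; median 0.64, but -0.48 scaled to the ERCC entries). The part of other cells in the changes below was not tested.

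Promoter sequences are shown for genes that lead the 3 patterns described below: Obox3 and Slc34a2 among the risen genes, Zp3 and Zar1 among the fallen, and Rps9, Nop56 and Mdh2 among those low in the zygote and back in the 2-cell embryo. Each is the 250 bases before the gene's start, 5′ to 3′ on the gene's strand, from RefSeq (GRCm38.p6). Capitals mark any match on either strand to 6 short motifs. The general promoter motifs searched were CCAAT of the box with that name, the motif GGGCGG known as the GC box, and the motif TATAAA of the promoter box named after it. Motifs of sequence-specific factors were GGATTA for the core of paired-like homeodomain sites, the motif CACGTG that is called an E box, and a homeodomain site with the letters TAATTG, whose matches can overlap those of CCAAT.
Obox3 (chr7:15639778-15640027, minus strand): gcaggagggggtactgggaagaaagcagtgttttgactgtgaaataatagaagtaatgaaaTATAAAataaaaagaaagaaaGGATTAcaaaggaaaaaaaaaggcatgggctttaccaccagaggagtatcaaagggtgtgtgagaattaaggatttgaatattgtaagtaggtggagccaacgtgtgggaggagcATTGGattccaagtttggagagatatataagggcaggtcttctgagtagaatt
Slc34a2 (chr5:53049103-53049352, plus strand): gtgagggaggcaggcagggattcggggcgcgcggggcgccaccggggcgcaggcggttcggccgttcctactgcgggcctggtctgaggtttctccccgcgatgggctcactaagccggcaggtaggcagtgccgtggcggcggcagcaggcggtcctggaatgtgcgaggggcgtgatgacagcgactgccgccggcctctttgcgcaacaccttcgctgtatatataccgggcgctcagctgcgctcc
Zp3 (chr5:135979855-135980104, plus strand): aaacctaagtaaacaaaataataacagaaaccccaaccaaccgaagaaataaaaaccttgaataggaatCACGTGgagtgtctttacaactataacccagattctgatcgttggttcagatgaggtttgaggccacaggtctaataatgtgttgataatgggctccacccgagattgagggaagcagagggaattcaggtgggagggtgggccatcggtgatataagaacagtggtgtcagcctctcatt
Zar1 (chr5:72581085-72581334, minus strand): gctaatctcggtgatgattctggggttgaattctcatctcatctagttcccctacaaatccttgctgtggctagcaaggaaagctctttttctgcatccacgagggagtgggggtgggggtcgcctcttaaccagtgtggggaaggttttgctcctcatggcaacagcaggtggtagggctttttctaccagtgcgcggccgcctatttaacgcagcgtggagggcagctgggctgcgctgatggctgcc
Rps9 (chr7:3703791-3704040, plus strand): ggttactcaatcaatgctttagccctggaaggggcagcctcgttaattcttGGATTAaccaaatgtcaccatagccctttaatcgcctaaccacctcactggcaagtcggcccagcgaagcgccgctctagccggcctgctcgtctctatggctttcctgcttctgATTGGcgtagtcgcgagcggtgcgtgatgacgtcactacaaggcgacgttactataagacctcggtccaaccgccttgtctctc
Nop56 (chr2:130274162-130274411, plus strand): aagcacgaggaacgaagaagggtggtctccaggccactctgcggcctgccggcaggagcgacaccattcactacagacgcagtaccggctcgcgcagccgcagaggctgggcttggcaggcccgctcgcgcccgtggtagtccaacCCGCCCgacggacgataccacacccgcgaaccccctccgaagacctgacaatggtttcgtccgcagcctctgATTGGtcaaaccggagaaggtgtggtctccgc
Mdh2 (chr5:135778399-135778648, plus strand): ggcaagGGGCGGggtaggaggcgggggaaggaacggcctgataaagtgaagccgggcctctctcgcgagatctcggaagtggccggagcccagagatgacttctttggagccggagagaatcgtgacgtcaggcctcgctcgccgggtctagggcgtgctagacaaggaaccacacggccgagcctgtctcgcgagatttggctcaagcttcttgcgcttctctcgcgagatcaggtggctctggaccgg
The Obox3 window held 3 matches (a TATAAA, then the homeodomain core GGATTA, then CCAAT near the start) and was 38.8% G and C, with 1 CG pair. Slc34a2, 69.6% G and C with 28 CG pairs, held no match, nor did Zar1. Rps9 held the homeodomain core and the CCAAT box, Nop56 the GC box and the CCAAT box, Mdh2 held GGGCGG and Zp3 held CACGTG. A promoter was found for 9794 of the 12230 genes (80.1%), in 12367 windows. Of these windows 36.5% held CCAAT, 56.0% GGGCGG, 6.83% TATAAA, 5.48% GGATTA, 8.45% CACGTG and 4.77% TAATTG, compared with 33.9%, 32.7%, 12.4%, 6.25%, 6.02% and 7.17% of all 32851 windows in the table. Genes fallen at least 4-fold had 1499 windows (1186 of 1470 genes matched). Of those windows 35.4% held CCAAT, 50.4% GGGCGG, 8.14% TATAAA, 5.80% GGATTA, 8.07% CACGTG and 6.47% TAATTG. The same count was void for genes risen at least 4-fold (78.6% matched) and for those low in the zygote and back (79.9% matched), since under 80% had a window. A match is only these letters in this window.

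The largest rises were genes near 0 in the oocyte. Dcdc2c, a doublecortin-domain gene, had 1.53, 1.39 and 1.91 FPKM in GV and 584 and 686 in 2-cell libraries, a log2 change of 7.93 (SE 0.28, adjusted p = 4.89e-15). Prps1, which makes the phosphoribosyl donor of nucleotide synthesis, had 0.637, 0.780 and 0.451 FPKM and then 188 and 163 (6.77, SE 0.20, adjusted p = 4.93e-16). Both were still at the oocyte level in the zygote, at 0.973, 0.985 and 0.813 FPKM for Dcdc2c and 0.677, 0.586 and 0.612 for Prps1. The sodium-phosphate cotransporter Slc34a2 went from 0.445, 0.694 and 1.02 to 169 and 158 FPKM (log2 6.59, SE 0.17), and the tetraspanin Cd63 from 0.702, 0.954 and 0.836 to 192 and 187 (log2 6.70, SE 0.73). Homeobox genes were among them: Obox3 had 0.208, 0.659 and 0.519 FPKM in GV and 132 and 122 in 2-cell libraries, and Crxos was listed at 0 in 2 GV libraries and at 0.78 in the other, then at 134 and 118. Guca1a, an activator of photoreceptor guanylate cyclase, was also listed at 0 in 2 GV libraries (0.22 in the other) and had 114 and 108 FPKM in 2-cell libraries. Of the remaining 5 of the 12 largest rises among named genes, Zscan5b, AF067063, Gcsh (glycine cleavage), Trim43b and Btbd18, the 2-cell values lay between 79.6 and 64 FPKM (Trim43b) and 259.7 and 218 FPKM (AF067063). The GV and 2-cell values of all 12 were far apart, with adjusted p from 3.1e-17 (Btbd18) to 8.02e-08 (Cd63). All 12 still rose when scaled to the ERCC entries, from 2.88 (AF067063) to 4.55 (Dcdc2c) on the log2 scale. Unnamed gene models made up 18 of the 50 largest rises and 5 of the 50 largest falls.

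**Figure D3:**
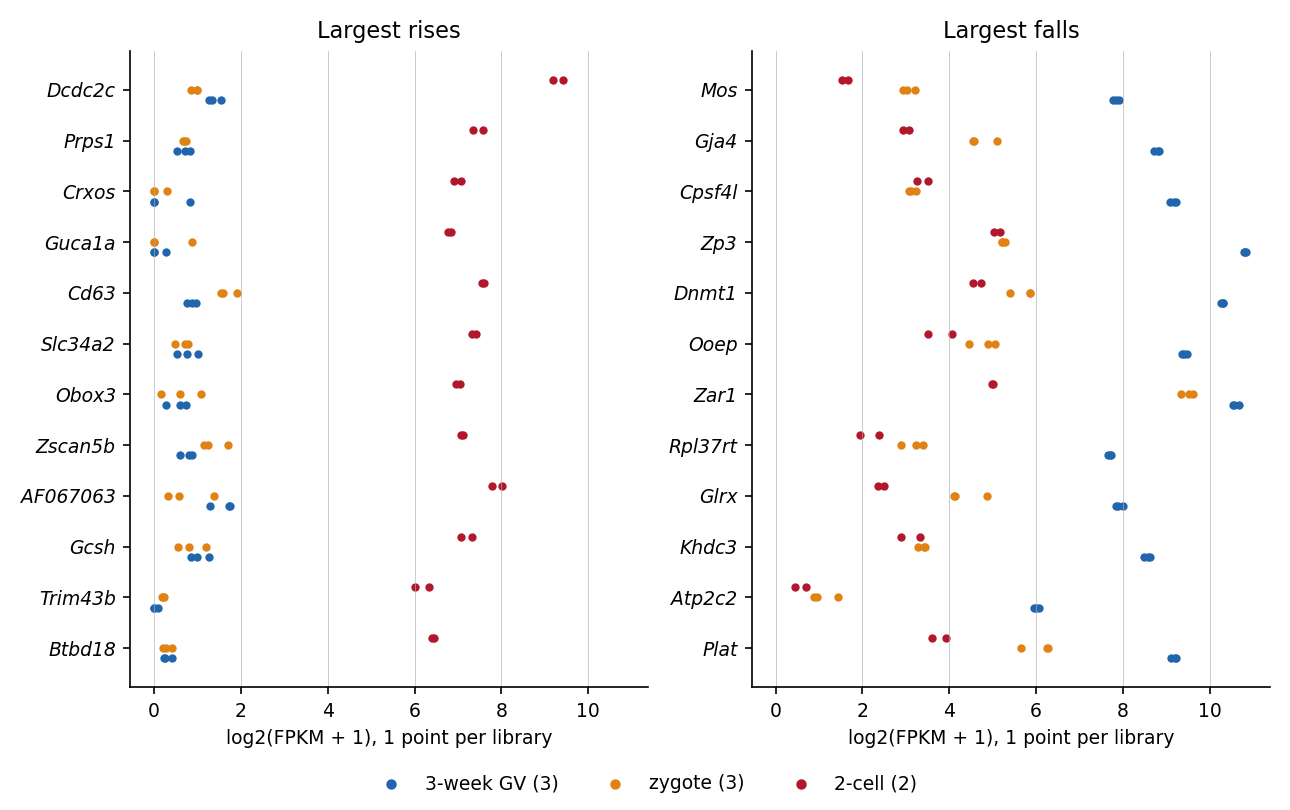
log2(FPKM + 1) of the 12 named genes with the largest rise (left) and the largest fall (right), 1 point per library, for 3-week GV oocytes (blue, 3), zygotes (orange, 3) and 2-cell embryos (red, 2). Among the rises the zygote points lie close to the GV points, and among the falls they lie below the GV points, least so for Zar1, whose zygote FPKM was 729.5, 779.6 and 644.

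The 12 largest falls among named genes included Mos, Zp3, Gja4, Zar1 and Dnmt1. Mos, the kinase that holds the egg in metaphase, had 239, 218 and 228 FPKM in GV and 1.9 and 2.2 in 2-cell libraries (log2 change -6.23, SE 0.31, adjusted p = 6.23e-13). Zp3, the sperm-binding zona glycoprotein, went from 1811, 1832 and 1779 to 31.6 and 34.7 FPKM (log2 -5.73, SE 0.26), and Gja4, the connexin of oocyte gap junctions, from 447, 422 and 455 to 6.7 and 7.47 (log2 -5.78, SE 0.31). Each of these 3 was already low in the zygote, at 7.11, 8.21 and 6.7 FPKM for Mos, 35.9, 37.8 and 36.4 for Zp3 and 33.5, 22.6 and 22.5 for Gja4. Zar1, which binds stored maternal mRNA, behaved otherwise: 1623, 1484 and 1516 FPKM in GV, 729.5, 779.6 and 644 in zygotes and 30.5 and 31.3 in 2-cell libraries (log2 -5.59, SE 0.11, adjusted p = 6.97e-18). Dnmt1, the maintenance DNA methyltransferase, had 1224, 1255 and 1258 FPKM in GV and 22.2 and 25.4 in 2-cell libraries. Ooep and Khdc3, parts of the subcortical maternal complex, fell, Ooep from 709, 657 and 677 FPKM to 10.4 and 15.8 and Khdc3 from 393, 379 and 356 to 9.09 and 6.37. The others of the 12 were Cpsf4l, Rpl37rt, Glrx (glutaredoxin), Atp2c2 and Plat (tissue plasminogen activator), with log2 changes from -5.77 (Cpsf4l) to -5.41 (Plat). Rpl37rt is a near copy of a ribosomal protein gene, so its value is uncertain.

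Genes abundant in the oocyte mostly fell. At the low end the rule of reaching 1 FPKM in 2 libraries largely sets the direction, so that count is a description. Sorting genes by a high mean in 1 stage favours falls from GV and rises to 2-cell, so those counts are also a description. Of 1573 genes with a GV mean under 1 FPKM, 1388 rose and 11 fell. Of 788 genes with a GV mean of at least 100 FPKM, 79 rose and 604 fell (median log2 change -1.42). Among the 489 genes with a 2-cell mean of at least 100 FPKM, 275 rose and 112 fell. The most abundant named gene in both stages was Zbed3, at 4117, 4116 and 4130 FPKM in GV and 2800 and 2959 in 2-cell libraries; its log2 change of -0.52 (adjusted p = 3.97e-04) was -0.04 with median-of-ratios scaling (adjusted p = 0.809). Gdf9, the oocyte growth factor, came next in GV with 2724, 2680 and 2706 FPKM and fell to a mean of 111 (log2 -4.59, SE 0.09). In 2-cell embryos the next were Omt2b (2400 and 1613 FPKM, 510.5, 526 and 503 in GV), the RNA-binding gene Rbm38 (1686 and 1673, 837, 773 and 814 in GV) and Omt2a (1773 and 1375, 347, 369.9 and 361 in GV). These 3 rose by 1.94, 1.06 and 2.12 on the log2 scale, with zygote means of 1599, 1955 and 1088 FPKM. The 3 changes scaled to the ERCC entries were -1.89, -2.77 and -1.71. Omt2a and Omt2b are related genes, so reads could be split between them.

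Genes of the embryo's own program mostly rose. In the list of 2-cell specific genes (Zscan4, Tdpoz, Usp17l, Obox and others), 39 of 47 tested genes rose and 3 fell, with a median log2 change of 3.95 (1.85 scaled to the ERCC entries, with 31 higher and 10 lower). This list, like the others, was chosen with earlier results of these data known, so its counts are a description. The families in this list have near-identical copies whose reads could be split, so single members are uncertain. The 3 that fell were Zfp750 (87.7, 95 and 89.5 to 11.1 and 8.75 FPKM), Obox7 (67, 68.9 and 73.9 to 19.9 and 20.6) and Arg2, an arginase (107, 109 and 98.6 to 34.5 and 23.2). Arg2 was lower in zygotes (8.05, 6.56 and 7.0 FPKM) than in both other stages. Of 33 pluripotency and early lineage regulators 24 rose and 6 fell (median 1.1, but -1.81 scaled to the ERCC entries). Klf5, a transcription factor of the early lineages, had 0.106, 0 and 0.0955 FPKM in GV and 51.5 and 34.6 in 2-cell libraries (log2 5.34, SE 0.19, adjusted p = 8.91e-15). Gabpa, an ETS factor, went from 0.134, 0.439 and 0.638 to 27.6 and 27.7 FPKM, and the retinoic acid receptor Rarg from 1.21, 0.888 and 1.55 to 30.7 and 32.7. Dppa5a fell from 236, 226 and 244 to 61.7 and 65 FPKM with 7.97, 11.6 and 9.12 in zygotes, and Nfya, a subunit of the CCAAT-binding factor, from 115, 109 and 119 to 38.9 and 36.8.

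Over all genes tested 30.7% rose and 42% fell, so changes in both directions are the background against which the counts of each list stand. In the cell cycle lists the following was measured. Among 48 genes of meiotic arrest and resumption 12 rose and 27 fell, with a median of -0.79. Bub1b, a spindle checkpoint kinase, stayed high in zygotes (301, 329 and 285 FPKM) and went from 499.7, 459.5 and 514 in GV to 13.5 and 11.4 in 2-cell libraries (log2 -5.20, SE 0.22). Cdc25c, the phosphatase that activates the mitotic kinase, rose from 2.5, 4.09 and 4.51 to 36.3 and 29.4 FPKM (log2 2.87, but -0.59 scaled to the ERCC entries). Of 67 genes of G1, S phase and replication licensing 19 rose and 32 fell; the median was -0.30, and 0.12 with median-of-ratios scaling. Cyclin E1 (Ccne1) rose from 2.39, 3.0 and 1.99 to 166 and 148 FPKM (log2 5.52, SE 0.26, adjusted p = 3.34e-13), and the kinase inhibitor Cdkn1a from 0.945, 0.771 and 0.511 to 18.9 and 18.9. The replication helicase subunit Gins1 fell from 47.6, 49.1 and 51.8 to 2.94 and 3.24 FPKM, and thymidylate synthase (Tyms) from 17.7, 18.4 and 17.7 to 1.8 and 2.2.

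Lists of chromatin genes had counts mostly near that background. Of 28 H3K4 methylation genes 9 rose and 10 fell, with a median of 0.09; with median-of-ratios scaling 18 rose and 7 fell, and scaled to the ERCC entries 2 rose and 26 fell (median -3.55). The largest rise there was the H3K4 demethylase Kdm5b, from 0.947, 0.903 and 1.02 to 73.8 and 64.5 FPKM (log2 5.16, SE 0.25, adjusted p = 4.27e-13), followed by Kdm5a (0.372, 0.292 and 0.311 to 8.82 and 7.99). Rbbp5 and Men1, subunits of the methyltransferase complexes, fell, Rbbp5 from 29.4, 30.9 and 28.4 to 4.0 and 4.36 FPKM and Men1 from 52.8, 53.6 and 52.2 to 10.9 and 7.96. Cxxc1 itself had 39.9, 37.9 and 41.5 FPKM in GV, 29.1, 24 and 30.7 in zygotes and 9.94 and 11 in 2-cell libraries (log2 -1.83, SE 0.29, adjusted p = 1.16e-05). Of 45 Polycomb and H3K9 methylation genes 22 rose and 16 fell (median 0.52, but -2.79 scaled to the ERCC entries), and of 45 SWI/SNF and NuRD genes 16 and 19 (median -0.14, but 0.32 with median-of-ratios scaling). The NuRD subunit Mta2 rose from 2.12, 2.14 and 1.81 to 141 and 152 FPKM (log2 5.61, SE 0.18), and the deacetylase Hdac1 from 7.84, 6.63 and 6.66 to 82.7 and 62.6, while Hdac3 fell from 9.93, 12 and 12.3 to 1.31 and 1.37. The heterochromatin protein gene Cbx3 rose from 4.24, 2.63 and 2.82 to 54.1 and 49.8 FPKM. The H3K9 methyltransferase Setdb1 fell from 84.7, 83.5 and 89.7 to 15.7 and 17.5. Of the risen genes in this paragraph, Hdac1 was at -0.45 and Cbx3 at 0.19 when scaled to the ERCC entries.

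The oocyte forms of chromatin proteins were among the genes that fell. Of 42 genes of histone variants and chaperones 9 rose and 20 fell (median -0.43). The oocyte linker histone H1foo had 1806, 1691 and 1757 FPKM in GV, 1405, 1623 and 1243 in zygotes and 81.8 and 59.4 in 2-cell libraries (log2 -4.63, SE 0.11, adjusted p = 5.23e-17). Npm2, the oocyte histone chaperone, fell from 1101, 1078 and 1097 to 61.3 and 52.7 FPKM and was at 41.5, 30.6 and 35.6 in zygotes. The variant H2afz rose from 27.4, 27.7 and 21.5 to 307 and 244 FPKM (log2 3.38, but -0.40 scaled to the ERCC entries). Of 23 DNA methylation genes 5 rose and 12 fell (median -0.31, but 0.14 with median-of-ratios scaling). Zfp57, which protects imprints, fell from 1280, 1299 and 1230 to 56.4 and 58.9 FPKM, and the dioxygenase gene Tet1 rose from 0.209, 0.304 and 0.190 to 6.33 and 7.49. Tet3, the dioxygenase of the paternal pronucleus, had 59.6, 51.9 and 63.7 FPKM in GV, 574, 555 and 623 in zygotes and 21.9 and 25.4 in 2-cell libraries, a net fall of 1.27 on the log2 scale (SE 0.15). Of 18 imprinted genes 6 rose and 3 fell, with Zrsr1 from 0.225, 0.0612 and 0.102 to 8.94 and 8.32 FPKM and Gnas from 202, 206 and 196 to 71.8 and 69 (list median 0.12, but -1.98 scaled to the ERCC entries).

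The 3 lists with the lowest medians were of maternal proteins. Of 18 Oogenesin and oocyte Fbxw genes 17 fell and none rose (median -3.76), and so fell 10 of 11 zona and gamete interaction genes (median -4.43) and 19 of 20 subcortical maternal complex and Nlrp genes (median -3.84). The signs of these 3 medians held under the 4 scalings. Padi6, needed for the lattices of the oocyte cytoplasm, fell from 1706, 1692 and 1670 to 58 and 41.9 FPKM, Fbxw21 from 349, 375 and 354 to 9.59 and 10.2 and Zp2 from 939, 991 and 958 to 26.6 and 22.9. In the subcortical and Nlrp list 1 gene rose, the histone chaperone gene Npm3, from 21.2, 19.6 and 18.9 to 37.9 and 28.6 FPKM (log2 0.70, adjusted p = 0.00324; 0.0774 without 2-cell replicate 1). Its log2 change scaled to the ERCC entries was -2.95. Of 17 oocyte transcription factor genes 9 fell and 5 rose (median -0.53). Nobox fell from a mean of 249 to 10.5 and 11.8 FPKM and Figla, which drives the zona genes, from 18, 13.7 and 18.1 to 0.425 and 0.488, while Zfp42, a pluripotency marker, rose from 0.707, 0.577 and 0.728 to 21.5 and 11.5. Of 17 oocyte secreted factor and Kit genes 11 fell and 3 rose (median -1.26).

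For genes that store, move or remove mRNA, the counts below stand beside 30.7% risen and 42% fallen over all genes tested. In the list of maternal mRNA storage and translation control 18 of 47 rose and 24 fell (median -0.52). Cpeb1, which controls cytoplasmic polyadenylation, fell from 299, 314 and 296 to 13 and 14.1 FPKM (log2 -4.38, SE 0.15), whereas Cpeb4 rose from 2.23, 2.05 and 2.33 to 17.3 and 18.6 after 23.6, 34 and 29.8 in zygotes. The poly(A)-binding genes also diverged: Pabpc1 rose from 17.8, 18.2 and 17.3 to 129 and 112 FPKM, and the oocyte gene Pabpn1l fell from 217, 228 and 246 to 7.04 and 5.65. The log2 changes of Cpeb4 and Pabpc1 scaled to the ERCC entries were -0.68 and -1.05. Of 56 deadenylation and decay genes 22 rose and 18 fell (median -0.10, but 0.34 with median-of-ratios scaling). Of 29 small RNA pathway genes 7 rose and 17 fell (median -1.15), with the Argonaute gene Ago2 from 3.32, 3.8 and 3.19 to 10.9 and 9.35 FPKM (-1.88 on the log2 scale when scaled to the ERCC entries) and the Tudor gene Tdrd5 from 63, 63.6 and 59.1 to 2.12 and 2.36. Of 57 importin and nucleoporin genes 25 rose and 25 fell; the oocyte importin Kpna7 went from 223, 220.0 and 212 to 16.2 and 18.6 FPKM and Kpna1 from 0.294, 0.206 and 0.647 to 38.5 and 34.8 (list median -0.04, but 0.42 with median-of-ratios scaling).

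Most genes of the mitochondrial and protein turnover lists fell. Of 78 nuclear-encoded oxidative phosphorylation subunits 63 fell and 5 rose (median -1.42; 2 rose without 2-cell replicate 1, 3 without GV replicate 3 and 12 with median-of-ratios scaling), of 76 mitochondrial ribosomal protein genes 54 fell and 11 rose (-1.28), and of 47 proteasome genes 36 fell and 7 rose (-1.34). Over all genes tested the median was -0.20. The median FPKM of the oxidative phosphorylation genes was 57.7 in GV, 4.74 in zygotes and 16.8 in 2-cell embryos. Ndufc2, a complex I subunit, fell from 63.2, 72.2 and 62.4 to 1.48 and 2.55 FPKM (log2 -4.49, SE 0.27), and Mrps36 from 106, 106 and 99.4 to 1.4 and 2.64. Cox8a, a complex IV subunit, was an exception, rising from 135, 133 and 125 to 439 and 344 FPKM (log2 1.56, but -2.25 scaled to the ERCC entries). The proteasome subunit Psma7 fell from 169, 153 and 180.2 to 8.94 and 9.39 FPKM and the proteasome activator Psme4 rose from 35.8, 37.8 and 36.3 to 70.2 and 74.5 (log2 0.96, but -2.78 scaled to the ERCC entries). Of 22 aminoacyl-tRNA synthetase genes 16 fell and 5 rose (-1.13), and of 33 chaperonin and heat-shock genes 20 and 8 (-0.55), with Hsp90aa1 from 826, 909 and 813 to 123 and 99.7 FPKM. Of 44 glycolysis, pyruvate and TCA enzymes 21 fell and 15 rose (median -0.35, but 0.11 with median-of-ratios scaling). The lactate dehydrogenase subunits moved apart: Ldhb fell from 2599, 2486 and 2575 to 301 and 259 FPKM and Ldha rose from 5.36, 4.55 and 4.71 to 24.1 and 23.5 (log2 2.08, SE 0.44, but -1.38 scaled to the ERCC entries).

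**Figure D4:**
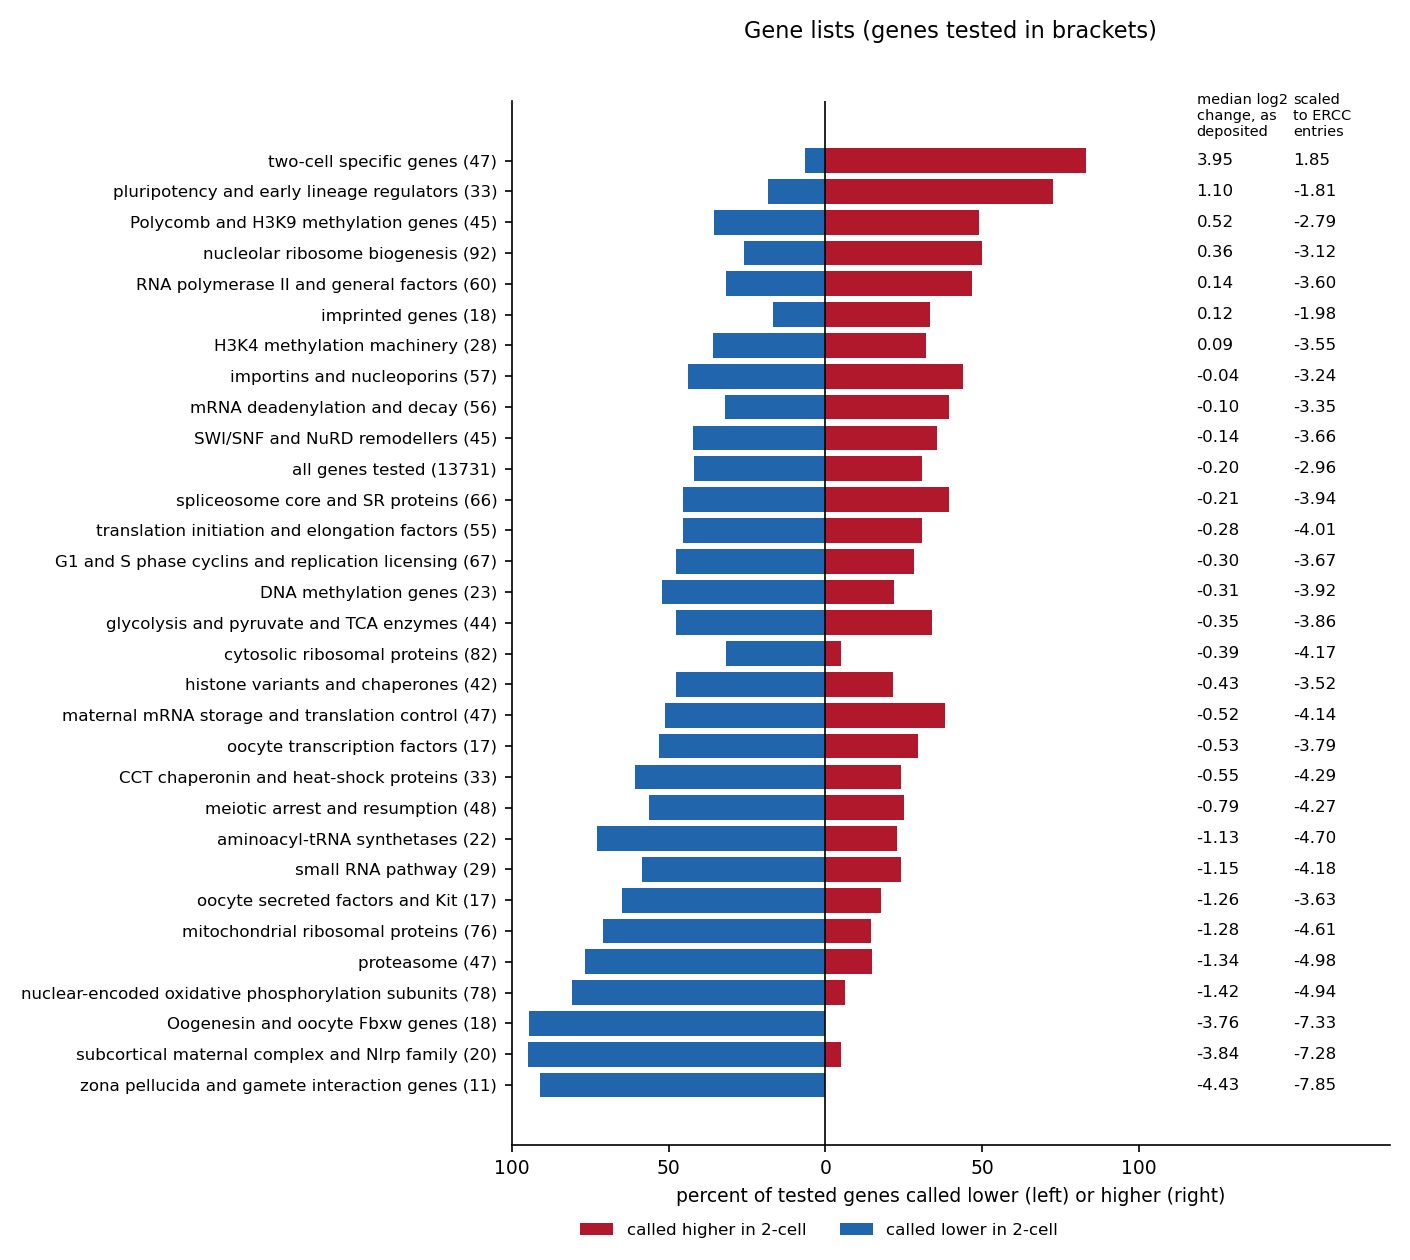
Percent of the tested genes of each list shown (marker lists of other cells are left out) called lower (blue, left) or higher (red, right) in 2-cell embryos than in 3-week GV oocytes, ordered by the median log2 change, which is printed on the deposited scale and scaled to the ERCC entries. The list of 2-cell specific genes has the highest median (3.95) and the zona list the lowest (-4.43); scaled to the ERCC entries of the medians shown only that of the 2-cell specific genes (1.85) is above 0.

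A set of genes was low in the zygote and back in the 2-cell embryo. For 811 of the 12230 genes (6.63%) the zygote mean was at least 2 below both the GV and the 2-cell mean on the log2(FPKM + 1) scale, and 746 of them met the same rule with 3-month in place of 3-week GV oocytes. Their net change was called higher for 204, lower for 280 and neither for 327. The opposite pattern, a zygote mean at least 2 above both, held for 25 genes. The count of 811 depends on scale: it was 513 with median-of-ratios scaling, 281 scaled to the ERCC entries, 1754 with a pseudocount of 0.1 and 255 with 5. Mdh2, mitochondrial malate dehydrogenase, had 91.1, 88.4 and 90.6 FPKM in GV, 1.02, 1.61 and 2.01 in zygotes and 101 and 62.9 in 2-cell libraries, a net log2 change of -0.17 (SE 0.29, adjusted p = 0.606). The GV and 2-cell values of Mdh2 overlapped, and every zygote value lay far below both. Nop56, a core protein of small nucleolar ribonucleoproteins, went from 49.1, 41.9 and 42.5 through 1.2, 1.33 and 0.592 to 55.5 and 51.2 FPKM. Rsl24d1, a ribosome assembly factor, went from 87.6, 89.6 and 87 through 2.66, 2.1 and 3.92 to 103 and 97.9, and Eif3j1, a translation initiation factor subunit, from 49.6, 52.2 and 46.1 through 0.262, 0.243 and 0.235 to 96.9 and 84.8. For Eif3j1 the 3-month GV mean was 11.8 FPKM, below the 3-week values. The others of the 10 largest were Rps9, Ttc1, Snrpd2, Rpl10a, Pdcd2 and Bola2, and across the 10 the zygote lay 4.31 (Bola2) to 5.33 (Eif3j1) below the lower of the other stages on the log2 scale. This gap scaled to the ERCC entries was 2.52 (Pdcd2) to 4.20 (Eif3j1). The net log2 changes of Nop56, Rsl24d1 and Eif3j1 scaled to the ERCC entries were -3.46, -3.59 and -2.89.

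Most cytosolic ribosomal protein genes belonged to this set. Of 82 of them, 68 (82.9%) met the rule, against 6.63% of the 12230. Their median FPKM was 140.3 in GV, 8.73 in zygotes and 102 in 2-cell embryos, and together they made up 3.32% to 3.60% of gene FPKM in GV, 0.422% to 0.477% in zygotes, and 3.34% and 3.89% in 2-cell embryos. A gene low in GV or 2-cell embryos cannot meet the rule, so the 82.9% and the 6.63% are not like with like. The median FPKM of all genes tested was 6.28 in GV and 5.51 in 2-cell embryos. With median-of-ratios scaling 58 of the 82 met the rule, and 24 scaled to the ERCC entries. In the net comparison 4 of the 82 rose and 26 fell (median -0.39), but with median-of-ratios scaling 16 rose and 11 fell (median 0.06). Without replicate 3 of the deletion 2-cell group, a library that stands apart (12295 genes at 1 FPKM or more, against 10148 and 10441 in the other 2) and enters the shared estimate of the spread, 10 rose and 39 fell. With only the compared groups fitted 12 rose and 44 fell, and without wild-type 2-cell replicate 2 13 fell. Rps9 had 166, 170.0 and 164 FPKM in GV, 6.23, 4.52 and 5.64 in zygotes and 189.8 and 128 in 2-cell libraries. Rplp0 ended higher (158, 138 and 145 in GV, 414 and 336 in 2-cell; log2 1.34, but -2.47 scaled to the ERCC entries) and Rpl5 lower (176, 172 and 172 in GV, 26.6 and 18.5 in 2-cell; log2 -2.91, SE 0.16). Ribosomal protein genes have many processed copies, so single values are uncertain. Rps27l, a related gene, was not low in zygotes: it had 71.7, 61.7 and 55.5 FPKM in GV, 169, 189 and 151 in zygotes and 386 and 229.9 in 2-cell libraries (net log2 2.23, but -1.57 scaled to the ERCC entries).

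**Figure D5:**
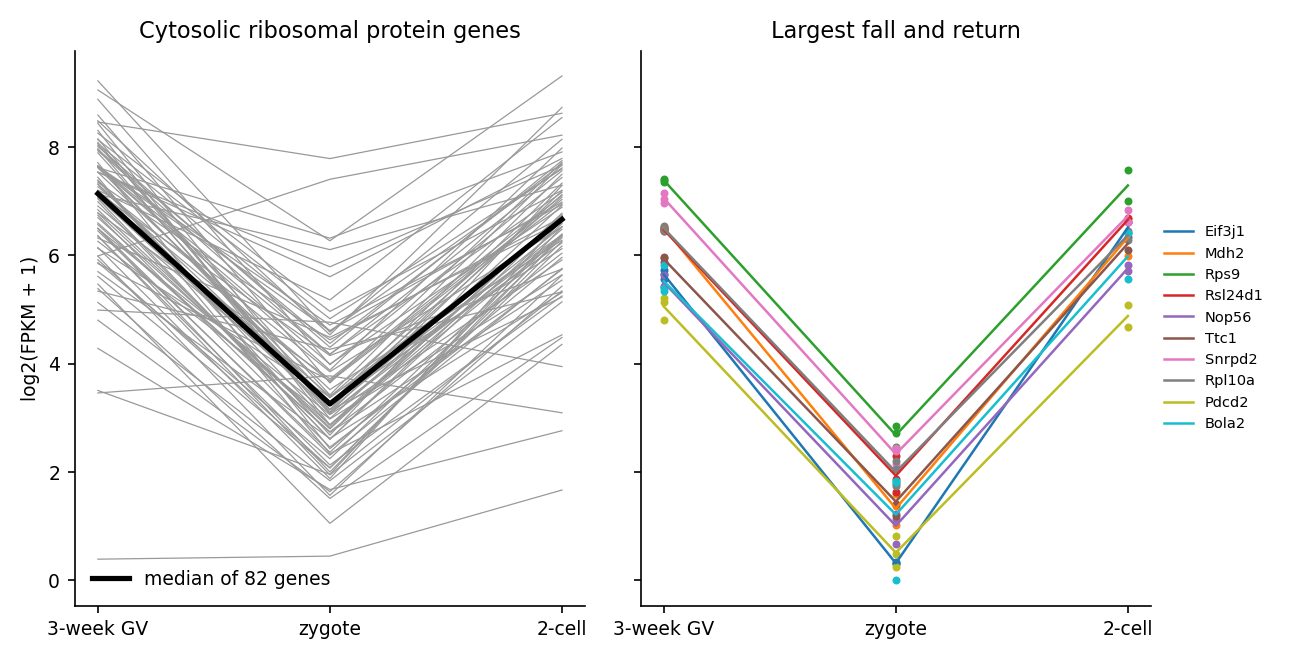
Mean log2(FPKM + 1) in 3-week GV oocytes, zygotes and 2-cell embryos for the 82 cytosolic ribosomal protein genes (left, 1 grey line per gene, black for the median) and the 10 named genes with the largest fall and return (right, points are libraries). The median of the ribosomal protein genes was 140.3, 8.73 and 102 FPKM in the 3 stages; scaled to the ERCC entries 24 of the 82 met the rule of a fall and return.

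The share of a list that met the rule of a fall and return was next highest for nucleolar ribosome biogenesis (40.2%), translation factors (30.9%), chaperonin and heat-shock genes (30.3%), proteasome (27.7%), oxidative phosphorylation (23.1%) and tRNA synthetases (22.7%). The lists also differ in their FPKM levels, which limits a comparison of these shares. Of 92 nucleolar ribosome biogenesis genes 37 met the rule, and in the net comparison 46 rose and 24 fell (median 0.36, but -3.12 scaled to the ERCC entries). Nop16 had 0.738, 0.947 and 0.760 FPKM in GV, was listed at 0 in all zygote libraries, and had 39.6 and 28.2 in 2-cell libraries (log2 4.25, SE 0.24). Rrs1 rose from 1.49, 1.78 and 1.66 to 67.5 and 64.4 FPKM and Polr1c, a subunit of RNA polymerases I and III, from 7.05, 8.63 and 6.07 to 117 and 99.8, while Bms1 fell from 289, 299 and 302 to 20.2 and 20.2. Rn45s, the 45S ribosomal RNA precursor, had 159.8, 148 and 147 FPKM in GV, 566, 564 and 475 in zygotes and 1356 and 1176 in 2-cell libraries (log2 3.05, but -0.77 scaled to the ERCC entries). Of 55 translation factor genes 17 rose, 25 fell and 17 met the rule (median -0.28, but 0.17 with median-of-ratios scaling). Eif1ax fell from 259.5, 276 and 284 to 48 and 32 FPKM, and its relative Eif1a rose from 0.901, 1.08 and 0.761 to 11.4 and 11.1 (log2 2.68, but -0.15 scaled to the ERCC entries). Of 66 spliceosome genes 26 rose, 30 fell and 7 met the rule (median -0.21, but 0.26 with median-of-ratios scaling). Cdc5l rose from 0.922, 1.08 and 0.990 to 29.9 and 28.9 FPKM, and Eftud2, a GTPase of the U5 particle, fell from 53.6, 52.9 and 53.2 to 2.35 and 2.63. Of 60 RNA polymerase II and general factor genes 28 rose and 19 fell (median 0.14, but -3.60 scaled to the ERCC entries). The elongation kinase Cdk9 rose from 4.74, 4.74 and 5.2 to 52.8 and 54.9 FPKM (log2 3.22, but -0.35 scaled to the ERCC entries), and Gtf2b, which recruits the polymerase, fell from 256, 282 and 247 to 58.8 and 32.7.

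On the deposited scale some genes ended where they began. Of genes with a mean of at least 100 FPKM, among the smallest net changes were those of Rpl24 (112, 124 and 92.9 FPKM in GV, 132 and 89.6 in 2-cell), Tpt1 (288, 269.8 and 270.1, then 293 and 258), Dynll2 (277, 273 and 271, then 270.3 and 279), Rpl18 and Med10. Their zygote values differed: 5.0, 5.47 and 7.66 FPKM for Rpl24, 163, 157 and 144 for Tpt1 and 543, 562 and 536 for Dynll2. The log2 change of Tpt1 was -0.0035 as deposited, 0.47 with median-of-ratios scaling (adjusted p = 0.00412) and -3.81 scaled to the ERCC entries. Scaled in that last way, Rpl24 was at -3.78, Dynll2 at -3.80, Rpl18 at -3.80 and Med10 at -3.76. Among genes that peaked in the zygote, Kdelr2, a receptor that retrieves proteins to the endoplasmic reticulum, had 4.11, 4.64 and 5.65 FPKM in GV, 73.7, 66.8 and 65 in zygotes and 10.3 and 8.23 in 2-cell libraries (net log2 0.83, but -2.41 scaled to the ERCC entries). Rfpl4 had 365, 317 and 344, then 1802, 1921 and 1737, then 241 and 163 FPKM. Palb2, a partner of BRCA2, had 7.25, 8.68 and 8.29 FPKM in GV, 46.7, 42.5 and 49.2 in zygotes and 8.18 and 7.88 in 2-cell libraries, with GV and 2-cell values that overlapped.

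The same change was then set against that of the maternal Cxxc1 deletion, as the difference of differences in the same fit. Cxxc1 had 0.893, 1.02 and 1.49 FPKM in the deletion GV libraries and 1.17, 0.626 and 4.16 in the deletion 2-cell libraries, against 39.9, 37.9 and 41.5 in wild-type GV. Of the 13731 genes, the change was higher with deletion for 4170 (30.4%) and lower for 3772 (27.5%). These counts scaled to the ERCC entries were 6612 and 1241, with median-of-ratios scaling 3563 and 4200 and, without replicate 3 of the deletion 2-cell group, 4137 and 4371. Of the 47 2-cell specific genes the change was lower with deletion for 42 and higher for 2. The lists were chosen with earlier results of these data known, so their counts here are a description. Slc34a2, which rose to 169 and 158 FPKM in wild type, had 1.67, 1.19 and 1.67 in the deletion GV libraries and 1.76, 1.7 and 1.81 in the deletion 2-cell libraries (difference of log2 changes -6.45, SE 0.23, adjusted p = 1.81e-13). For Prps1 the wild-type change was 6.77 and that with deletion 1.25, and the groups' 2-cell values did not overlap (188 and 163 against 6.55, 7.21 and 6.7 FPKM). Alppl2, an alkaline phosphatase, rose in wild type (5.06, 5.65 and 4.8 to 273 and 306 FPKM) and had 8.47, 9.26 and 8.12 and then 3.04, 5.36 and 2.89 with deletion. In the other direction, the change was higher with deletion for 19 of 20 subcortical complex and Nlrp genes and for 18 of 18 Oogenesin and Fbxw genes. Oosp2, an oocyte secreted protein, fell from 262, 282 and 268 to 13.6 and 13.2 FPKM in wild type and had 164, 162 and 150.1 in GV and 150.1, 203 and 158 in 2-cell libraries with deletion (difference 4.32, SE 0.16, adjusted p = 1.90e-13). Among cytosolic ribosomal protein genes the change was lower with deletion for 32 of 82 and higher for 7 (median difference -1.03). The list counts of this difference are on the deposited scale only, so their direction under ERCC scaling is not known. Scaling to the ERCC entries raised the median difference of all genes tested by 0.76. Mdh2 had 84.5, 87 and 83.1 FPKM in deletion GV and 13.4, 9.29 and 27.4 in deletion 2-cell libraries (difference -2.24, SE 0.39, adjusted p = 6.16e-05).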

How the data were processed

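RNA was sequenced from 23 libraries. The authors deposited 1 table of FPKM values for all of them, with 24506 entries. The submitters' processing notes name CASAVA 1.4, TopHat2 2.0.12, Cufflinks 2.2.1 and SAMtools, and the builds mm10 and mm9 without saying which was used where. FPKM values do not show read depth, so depth is unknown and no counting error is given. The 95 control entries (92 ERCC, 3 RGC) were left out of the tests, and 27 names turned into dates were not printed.

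From the deposited FPKM, log2(FPKM + 1) was computed and fitted with limma 3.58.1 (R 4.3.3): 8 group means over all 23 libraries (15 residual degrees of freedom), a mean-variance trend, and Benjamini-Hochberg adjustment over 13731 genes with at least 1 FPKM in at least 2 libraries of the groups used. Fold changes on this scale are too small for low genes. SEs are those of the fit. A called gene has an adjusted p under 0.05. The difference with deletion was a contrast of 4 groups in the same fit. Genes were named by rule: the 12 largest rises and falls among named genes with a mean of at least 5 FPKM and no overlap, up to 3 called genes per direction in each list, the 10 largest falls and returns, the 6 largest zygote excesses, the 6 highest per stage, the 6 smallest changes at 100 FPKM or more, the 6 largest differences with deletion per direction, and Cxxc1. A gene that the rule takes is not reported here. The members and gene lists were chosen with earlier results of these data known. Alternatives were another pseudocount, filter, scaling or set of libraries, each library of the groups in a comparison left out, and a replicate block. Scaling to the ERCC entries or to the sum of gene FPKM, every alternative for the fall and return, and some fits without deletion 2-cell replicate 3 were chosen after seeing the data.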

Additional observations from a re-analysis of the deposited data

Results flagged for a closer look

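The change from GV oocyte to 2-cell embryo differed most between the maternal Cxxc1 deletion and wild type in 12 named genes, each by a test of the difference itself (limma, Benjamini-Hochberg adjusted). Lower with deletion were Alppl2 (difference of log2 changes -6.61), Slc34a2 (-6.45), Snhg9 (-5.86), Guca1a (-5.68), Hspa1a (-5.63) and Prps1 (-5.52). Hspa1a, an inducible heat-shock chaperone, had 4.53, 6.47 and 6.54 FPKM in wild-type GV and 38.4 and 29.9 in wild-type 2-cell libraries (log2 2.37, but -1.18 scaled to the ERCC entries), and 67.8, 47.9 and 42.5 and then 4.26, 2.35 and 8.32 with deletion. Snhg9, a small nucleolar RNA host gene, had 8.68, 0 and 0 and then 11.1 and 35.5 FPKM in wild type. With deletion Snhg9 had 14.5, 12.2 and 0 and was then listed at 0 in all 3 libraries. Its difference lost the call without wild-type 2-cell replicate 2 (-5.06, adjusted p = 0.0624 by limma), and its wild-type change lost it under 6 alternatives (adjusted p 0.0507 to 0.232). Guca1a had 0, 1.19 and 1.42 FPKM in deletion GV and 3.79, 1.9 and 2.24 in deletion 2-cell libraries.

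Higher with deletion were Mir7035 (6.90), Pnpla3 (5.14), Srp54c (5.04), Ndufs5 (4.73), Pfdn4 (4.50) and Oosp2 (4.32). Mir7035 had 0, 2250 and 748 FPKM in wild-type GV and 0 and 0 in wild-type 2-cell libraries, and was listed at 0 in all 6 deletion libraries. Its difference lost the call in limma with only the compared groups fitted (adjusted p = 0.0997), with array weights (0.124), and without GV replicate 2, GV replicate 3 or either 2-cell replicate (0.0523 to 0.0583). Pnpla3, a lipid hydrolase gene, had 64.3, 66.5 and 67.1 FPKM in wild-type GV and 0.799 and 0.710 in wild-type 2-cell libraries, but its mean in 3-month wild-type GV oocytes was 0.155. With deletion Pnpla3 had 0.331, 0.296 and 0.284 in GV and 0.231, 0.206 and 0.188 in 2-cell libraries, so its difference rests on the 3-week wild-type GV libraries. Srp54c spread widely in deletion GV oocytes (0.00107, 6.68 and 31.3 FPKM). Ndufs5, a complex I subunit, had 67.4, 52.4 and 42.7 and 9.22 and 8.02e-04 FPKM in wild type and 69.8, 53.1 and 76.1 and 84.8, 130.0 and 100.5 with deletion. Pfdn4, a prefoldin subunit, had 196, 189 and 183 and 31.1 and 23.9 FPKM in wild type and 87.2, 104 and 98.7 and 319, 449 and 243 with deletion.

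The control entries also carried a signal. The ERCC entries were 15.4-fold higher in 2-cell than in 3-week GV libraries (median). The RGC-CRE entry had 0.145 FPKM in wild-type 2-cell replicate 2 and 0 in the other 10 wild-type libraries. With the Zp3-Cre deletion it had 4.82, 5.92 and 2.03 FPKM in GV and 7.79, 8.55 and 5.70 in 2-cell libraries. Zygote libraries of that deletion had 3.19, 3.12 and 2.00 FPKM, and the Gdf9-Cre GV libraries had 0.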

How the results depend on the processing

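Under another pseudocount, filter, set of libraries in the fit, median-of-ratios scaling or quantile normalization, the counts of genes higher and lower stayed within 1.5 times of 4071 and 5573. Leaving out each library of the pair compared in turn, or deletion 2-cell replicate 3, gave 3722 to 4225 higher and 5184 to 5745 lower. For the difference with deletion, each library of its groups left out in turn gave 3790 to 4309 higher and 3427 to 4371 lower. Genes that fall and return numbered 768 to 845 without each wild-type 3-week GV, zygote or 2-cell library. Libraries of other groups were not left out. The groups share only 2 replicate numbers, and same-numbered libraries did not deviate together (r 0.019 and -0.0013). With the replicate block 4071 genes were higher and 5551 lower, and the difference with deletion was higher for 4136 and lower for 3786. Scaling to the ERCC entries, chosen after seeing the data, moved the counts to 588 and 10870, those of the difference to 6612 and 1241, and the falls and returns to 281. The last count was 513 with median-of-ratios scaling, 1754 with a pseudocount of 0.1 and 255 with 5. Scaled to the ERCC entries, medians turned negative for pluripotency (-1.81), nucleolar (-3.12), RNA polymerase II (-3.60), H3K4 (-3.55), Polycomb and H3K9 (-2.79), imprinted (-1.98), oviduct (-1.56), sperm (-1.18) and stromal (-0.48) lists. Medians turned positive with median-of-ratios, quantile and gene-sum scaling, in this order, for translation factors (0.17, 0.17, 0.15), spliceosome (0.26, 0.25, 0.23), glycolysis and TCA (0.11, 0.033, 0.088), mRNA decay (0.34, 0.23, 0.33), DNA methylation (0.14, 0.069, 0.12), SWI/SNF and NuRD (0.32, 0.28, 0.29) and importins (0.42, 0.24, 0.40). With median-of-ratios and gene-sum scaling they did so for ribosomal proteins (0.062, 0.041) and G1 and S phase (0.12, 0.12). Leaving out 1 library at a time, the sperm median went from -0.079 (without GV replicate 3) to 0.298. Tpt1 was at 0.47 with median-of-ratios scaling and 0.56 with quantile normalization. The cause of these shifts was not tested. The wild-type change of single genes was checked with a pseudocount of 0.1, median-of-ratios scaling, quantile normalization, a replicate block and smaller sets of libraries. These sets were the wild-type libraries, the groups compared, all without deletion 2-cell replicate 3, and all without each compared library in turn. Of these 2160 values for 180 genes, 2120 kept their direction and side of the threshold. Other alternatives, such as 3-month GV oocytes, another filter or a pseudocount of 5, were not counted here. Read depth and the amount of control RNA are unknown, which limits every statement on amounts per cell.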
